A study of Angelica pubescens with 12 samples.

Results

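Transcript levels in the roots of Angelica pubescens from Chongqing were compared with those in roots from Hubei. The plant's dried root is the drug Angelicae Pubescentis Radix, and it is valued for coumarins, volatile terpenes and polyacetylenes. Roots from both areas were labelled as 2 years old, and the producing area, which stands for a different ecological environment, was the only variable named. Each area had 3 libraries, so the comparison used 6 of the 12 libraries of the series, and roots from Gansu and Shanxi (3 libraries each) entered the shared error estimate and a later comparison of levels. The labels give no cultivar, plot, harvest date or pooling, and they do not say whether the 3 libraries of an area came from separate plants, so the p-values reflect the spread among these libraries alone, and that spread may be technical. Area and every other difference between the 2 sets of roots cannot be told apart.

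The expression values belong to unigenes, which are transcript sequences assembled without a genome. The deposited annotation gives the best match of a unigene among known proteins, in most cases a carrot protein, and 39556 of 67432 unigenes had such a match. Unigenes with the same match were summed, which gave 26255 proteins, and these sums are the unit used here unless unigenes are named. A protein name is therefore the name of the best match, and unigenes of paralogs or alleles may share one name. Levels are given as CPM, counts scaled to library size, which are comparable for 1 protein between libraries, and as fragments per kilobase of transcript, scaled to library size (FPKM) where different proteins are set side by side. Fold changes are log2 of Chongqing over Hubei with their standard error, and a protein was called changed where edgeR's quasi-likelihood test gave a Benjamini-Hochberg adjusted p under 0.05.

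A storage root collects sucrose from the phloem and keeps carbon as starch, sugars or oil, and nitrogen as vacuolar protein. Members of the carrot family also spend carbon on phenylpropanoids, from which lignin, coumarins and furanocoumarins are made, and on polyacetylenes, which start from desaturated fatty acids. Jasmonate, abscisic acid, gibberellin and ethylene signalling set how a root divides its resources among growth, storage and defence.

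The 6 libraries were sequenced to nearly equal depth, with 22854146 to 23187721 estimated counts each. Spearman's correlation of log2 CPM over proteins was 0.992 to 0.994 between libraries of the same area and 0.837 to 0.842 between a Chongqing and a Hubei library. The mean distance between areas exceeded that within areas by 0.154, which was the largest difference among the 10 ways to split 6 libraries into 2 groups of 3 (exact permutation test, one-sided, p = 0.1, the smallest that this design allows). Unigenes matching the fungus Rhizopus held 0.116%, 0.158% and 0.174% of the counts in Chongqing and 0.108%, 0.103% and 0.105% in Hubei. Of 315 Rhizopus-matched proteins tested, 85 were called higher in Chongqing and 0 lower, with a median log2 fold change of 0.59. Over all proteins tested, 34% were called higher and 36.1% lower, so the share of higher calls was not raised while lower calls were absent. Matches outside land plants and green algae were kept out of the families below.

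Of 24804 proteins tested, 17379 (70.1%) were called, 8426 (34%) higher and 8953 (36.1%) lower in Chongqing. Summed levels were higher in Chongqing for seed-type storage proteins, SWEET sugar exporters, starch synthesis, chitinases and metallothioneins. They were lower in Chongqing for polyphenol oxidases, FAD2-type desaturases, phenylpropanoid entry enzymes, peroxidases and TIFY proteins, and the counts for each family are given with it. Among proteins that differed by at least 2-fold the balance moved towards Hubei, with 3605 (14.5%) higher and 5246 (21.1%) lower in Chongqing. At 4-fold or more, 1735 (6.99%) were higher and 3142 (12.7%) lower. Since so many proteins passed the test, a family is described below by its counts beside 34% and 36.1% and by its median beside the median of all proteins, which was 0.00. In bulk root tissue, fewer cells of a type and less RNA per cell cannot be told apart, and this holds for every family that belongs to 1 cell type.

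**Figure D1:**
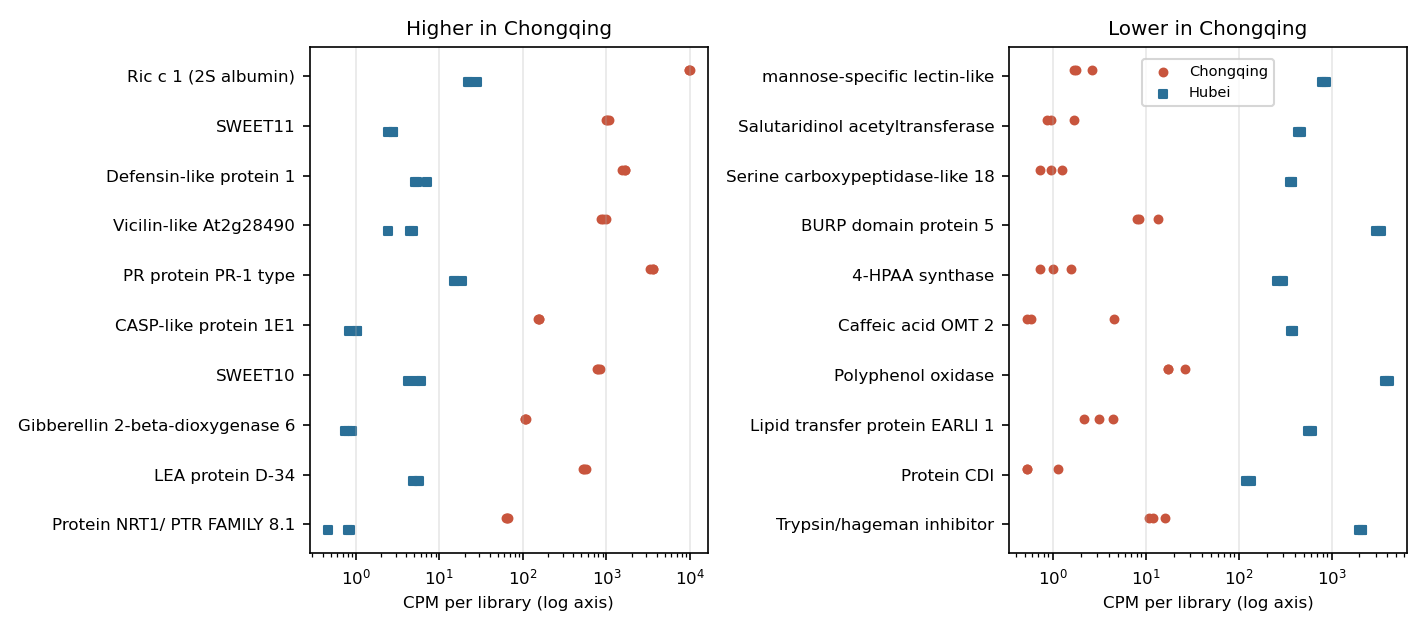
CPM per library on a log axis of the 10 proteins with the largest positive and the 10 with the largest negative log2 fold change under the rule for named proteins, with circles for the 3 Chongqing libraries and squares for the 3 Hubei libraries. The areas do not overlap for any of the 20 proteins, since the rule required this.

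The 2S albumin-type protein Allergen Ric c 1 (XP_017257498.1), a sulfur-rich seed storage protein, was the most abundant transcript per length in Chongqing, at 13973 ± 134 FPKM there and 35.8 ± 4.92 FPKM in Hubei (SD, n = 3 each). Its level was 9888, 9797 and 9795 CPM in the Chongqing libraries, against 27.8, 21.8 and 22.4 CPM in the Hubei libraries. All Chongqing libraries lay far above all Hubei libraries, with a log2 fold change of 8.68 ± 0.11 (adjusted p = 2.0e-15, edgeR quasi-likelihood). In Hubei the most abundant transcript per length was Pathogenesis-related protein A (CAA67246.1), a small intracellular protein of the Bet v 1 fold first described in parsley, with 657 ± 35.1 FPKM in Chongqing and 13017 ± 613 FPKM in Hubei.

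Further down, the 10 most abundant proteins of each area shared only a metallothionein-like protein type 2 (AAB70560.1) and Allergen Pet c 1 (XP_017234488.1). That metallothionein stood at 10928 ± 205 FPKM in Chongqing and 11937 ± 463 FPKM in Hubei and did not pass the test (log2 fold change -0.05 ± 0.05, adjusted p = 0.39). Chongqing's list also held another type 2 metallothionein (XP_017249682.1), the PR-1 type protein (XP_017256907.1), the Glycine-rich protein HC1 (XP_017249341.1) and an Endochitinase (AAD54934.1). Hubei's list held a Catalase (XP_017246960.1), which removes hydrogen peroxide, the BURP domain protein RD22 (XP_017228678.1), which responds to drought and abscisic acid in Arabidopsis, and an Inhibitor of trypsin and hageman factor (XP_017234169.1). RD22 had 48.4 ± 1.77 FPKM in Chongqing and 3329 ± 131 FPKM in Hubei, so a leading Hubei transcript was minor in Chongqing. HC1 showed the reverse, with 4311 ± 197 FPKM in Chongqing and 504 ± 36.2 FPKM in Hubei.

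Seed storage, seed maturation and oil body proteins, which normally fill and protect drying embryos, had higher transcript levels in Chongqing. This list was put together after the leading proteins had been seen, so its direction is a description. Of its 25 proteins, all tested, 24 were called higher in Chongqing and 0 lower, and the median log2 fold change was 5.06 (4.98 with members at 0 in Hubei set to their bound). Their summed level was 15427, 15475 and 15116 CPM in Chongqing and 317, 308 and 305 CPM in Hubei. Most of that sum came from the 2S albumin above.

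Vicilins, the trimeric storage globulins of seeds, came next. The more abundant vicilin-like protein (XP_017252497.1) had 2033, 2021 and 1938 CPM in Chongqing and 11.5, 7.77 and 9.48 CPM in Hubei, with no overlap and a log2 fold change of 7.71 ± 0.14 (adjusted p = 3.1e-14). A vicilin that the annotation names as another isoform of that carrot gene (XP_017252499.1) had 913, 998 and 851 CPM in Chongqing and 4.4, 2.4 and 4.9 CPM in Hubei. A protein matched to Vicilin Cor a 11 (XP_017232829.1) had 798 counts over the Chongqing libraries and 0 over the Hubei libraries, which makes it at least 278-fold higher if Hubei is set to a floor of 3 counts over its libraries. Not every storage globulin followed this pattern: the 11S globulin (XP_017237964.1), from the other large globulin class, averaged 27 ± 0.799 CPM in Chongqing and 25.2 ± 0.628 CPM in Hubei and did not pass the test (log2 fold change 0.10 ± 0.09).

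Oil body and desiccation proteins moved with the vicilins. The most abundant Oleosin (XP_017257190.1), which coats oil droplets, averaged 52.9 ± 1.9 CPM in Chongqing and 2.73 ± 0.539 CPM in Hubei (log2 fold change 4.27 ± 0.14). Among seed maturation proteins, an 18 kDa protein (XP_017257392.1) had 122, 124 and 118 CPM in Chongqing and 4.63, 3.93 and 2.9 CPM in Hubei. SEED MATURATION PROTEIN 1 (XP_017247840.1) was at 110.1 ± 3.42 CPM in Chongqing and 3.3 ± 0.983 CPM in Hubei. Late embryogenesis abundant (LEA) proteins, which are hydrophilic protectants made as seeds dry, were represented by D-34 (BAD86645.1) with 538, 571 and 517 CPM in Chongqing and 5.75, 5.5 and 4.9 CPM in Hubei. A tonoplast aquaporin of the TIP3 type (XP_017257466.1), whose Arabidopsis relatives sit in seed vacuoles, had 165 counts in Chongqing and 0 in Hubei, at least 57.4-fold higher. A second TIP3-type aquaporin (XP_017240459.1) had 83 counts in Chongqing and 0 in Hubei, at least 28.9-fold higher.

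Beyond the embryo set, dehydrins and LEA-like proteins as a family were split. Of 23 tested, 11 were called higher and 12 lower in Chongqing, and the median was -0.18. Their summed level was nevertheless 6942, 7107 and 6731 CPM in Chongqing and 1947, 1881 and 1872 CPM in Hubei, since the abundant members were higher. Among these, the Cold-regulated 413 plasma membrane protein 1 (XP_017230570.1) averaged 2348 ± 102 CPM in Chongqing and 539.6 ± 45.2 CPM in Hubei (log2 fold change 2.12 ± 0.07). LEA D-29 (XP_017217807.1) was at 1555 ± 23.8 CPM in Chongqing and 221 ± 2.68 CPM in Hubei. A stress marker of Arabidopsis, Low-temperature-induced 65 kDa protein (XP_017250957.1), was at 1300.2 ± 47.5 CPM in Chongqing and 394 ± 17.7 CPM in Hubei. Lower in Chongqing was Lea14-A (XP_017220140.1), at 30.0 ± 1.03 CPM there and 126 ± 2.2 CPM in Hubei.

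**Figure D2:**
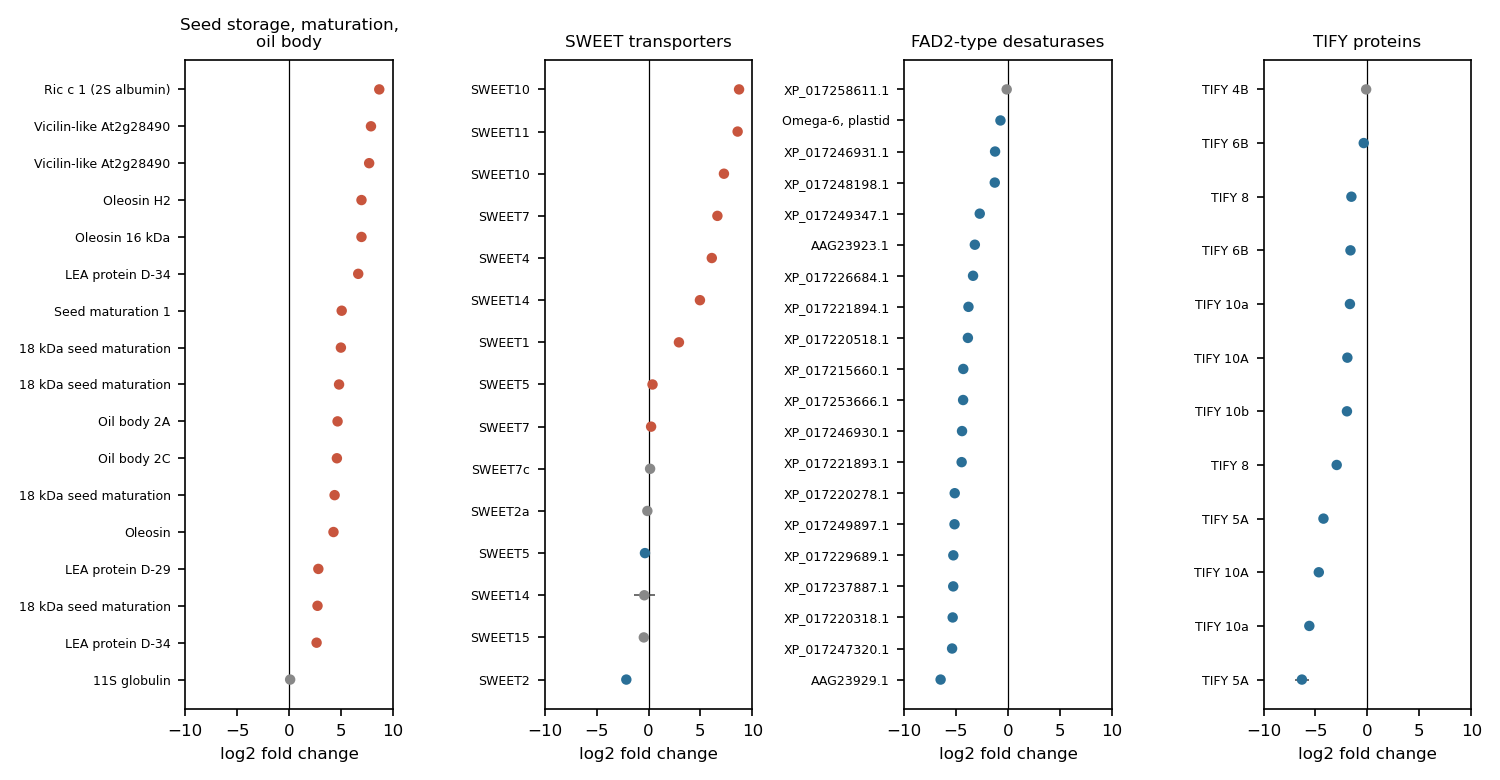
Log2 fold change (Chongqing over Hubei, horizontal axis) with its approximate standard error for members of 4 families. Drawn are the tested members that had more than 3 counts in both areas. Points are red where called higher in Chongqing, blue where called lower and grey where not called. Seed-type proteins lie to the right and FAD2-type desaturases and TIFY proteins to the left of 0, while SWEET transporters spread from -2.14 to 8.71, with 12 of 18 called higher and 2 lower.

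Sugar exporters of the SWEET family, which let sugars pass membranes down their gradient, were among the largest differences. This family was also gathered after its leading members had been seen. Of 18 SWEET proteins tested, 12 were called higher in Chongqing and 2 lower, with a median of 3.66 (3.34 with a member at 0 set to its bound). SWEET11 (XP_017251592.1), whose Arabidopsis relative exports sucrose from phloem parenchyma, had 1014, 989 and 1064 CPM in Chongqing and 2.76, 2.82 and 2.45 CPM in Hubei. The 2 ranges did not come near each other, and the log2 fold change was 8.57 ± 0.13 (adjusted p = 4.9e-15). SWEET10 (XP_017250200.1) had 803, 826 and 759.8 CPM in Chongqing and 5.29, 6.06 and 4.26 CPM in Hubei. SWEET7 (XP_017218067.1), in contrast, was expressed in both areas, at 358 ± 5.27 CPM in Chongqing and 302 ± 13.5 CPM in Hubei, a small called difference of 0.25 ± 0.05. SWEET2 (XP_017253940.1), a vacuolar member in Arabidopsis roots, went the other way, with 18.9, 18.4 and 19.4 CPM in Chongqing and 80.6, 81.9 and 87 CPM in Hubei.

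The remaining sugar carriers did not share the SWEET pattern. With SWEETs included, 24 of 53 tested sugar transporters were higher and 19 lower. Sugar transport protein 14 (XP_017220249.1), a hexose importer type, averaged 7.28 ± 0.885 CPM in Chongqing and 203 ± 5.42 CPM in Hubei (log2 fold change -4.80 ± 0.07). The sucrose importer SUC1 (XP_017247544.1) was at 70.4 ± 2.55 CPM in Chongqing and 93.2 ± 7.86 CPM in Hubei. Sucrose synthases, which open sucrose for use in sinks, differed by isoform. Sucrose synthase 3 (XP_017225961.1) averaged 822 ± 7.77 CPM in Chongqing and 48.5 ± 2.2 CPM in Hubei. The other main isoform, sucrose synthase 1 (XP_017222552.1), averaged 382 ± 15.2 CPM in Chongqing and 813 ± 51.6 CPM in Hubei.

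Starch synthesis was higher in Chongqing in 15 of 25 tested proteins and lower in 4, with a median of 0.64. Its summed level was 8023, 7916 and 8038 CPM in Chongqing and 2843, 2778 and 2781 CPM in Hubei. ADP-glucose pyrophosphorylase makes the glucosyl donor of starch, and its large subunit (XP_017226460.1) had 2835, 2756 and 2889 CPM in Chongqing and 75.4, 77.1 and 72.4 CPM in Hubei. The small subunit (XP_017247800.1), in contrast, was slightly lower, at 208 ± 5.62 CPM in Chongqing and 238 ± 2.17 CPM in Hubei (log2 fold change -0.19 ± 0.04). Granule-bound starch synthase (XP_017235555.1), which makes amylose, averaged 1082 ± 27.4 CPM in Chongqing and 344 ± 20.2 CPM in Hubei. Soluble starch synthase 3 (XP_017234711.1) did not pass the test, at 225 ± 2.45 CPM in Chongqing and 217 ± 9.09 CPM in Hubei.

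Starch-degrading enzymes were higher as well in part, with 14 of 30 called higher and 7 lower in Chongqing. Glucan phosphorylase L (XP_017217590.1), a plastid enzyme that can act in both directions, averaged 3473 ± 68.1 CPM in Chongqing and 1453 ± 16.2 CPM in Hubei. Alpha-amylase 2 (XP_017248808.1) had 448, 459.6 and 434 CPM in Chongqing and 68.3, 71.5 and 69.2 CPM in Hubei, and no library of one area reached the other. Beta-amylase 1 (XP_017219233.1), which releases maltose, averaged 354 ± 10.8 CPM in Chongqing and 67 ± 2.58 CPM in Hubei. Beta-amylase 3 (XP_017236671.1) was lower, at 4.07 ± 1.58 CPM in Chongqing and 20.6 ± 1.52 CPM in Hubei.

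Phenylpropanoid entry enzymes were lower in Chongqing in 9 of 13 proteins and higher in 2, with a median of -1.73. Summed, they reached 425, 431 and 397 CPM in Chongqing and 2269.8, 2179 and 2012 CPM in Hubei. Phenylalanine ammonia-lyase 3 (AJW77399.1), which starts the pathway, had 28.9, 29.5 and 26 CPM in Chongqing and 489, 477 and 445 CPM in Hubei (log2 fold change -4.06 ± 0.07). Among 49 tested monolignol proteins 14 were higher and 28 lower, with a median of -0.69. The p-coumaroyl ester 3-hydroxylase CYP98A2 (XP_017258053.1), a hydroxylation step on the way to lignin, averaged 9.14 ± 0.338 CPM in Chongqing and 525 ± 37.7 CPM in Hubei (log2 fold change -5.84 ± 0.08). Caffeic acid 3-O-methyltransferase 2 (XP_017241391.1), a member of the methyltransferases that act on lignin precursors, had 4.61, 0.529 and 0.579 CPM in Chongqing and 389, 381 and 369 CPM in Hubei. Both ranges stayed far apart, and the log2 fold change was -7.63 ± 0.32 with all libraries and -9.41 without Chongqing replicate 1.

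Coumarin and furanocoumarin enzymes were lower in 14 and higher in 3 of 22 tested proteins (median -1.18). The step towards the coumarin ring, feruloyl-CoA ortho-hydroxylase (QCY50327.1), had 47.3, 46.4 and 45.1 CPM in Chongqing and 694, 681 and 654 CPM in Hubei. Psoralen synthase, which forms the linear furanocoumarin psoralen, had 2 entries of opposite direction. The more abundant one (AXS77254.1) averaged 39.2 ± 2.81 CPM in Chongqing and 149 ± 10.2 CPM in Hubei, and the other (AXS77255.1) averaged 20.4 ± 1.44 CPM in Chongqing and 8.13 ± 0.855 CPM in Hubei. The umbelliferone prenyltransferase (QBZ68632.1), which adds a prenyl group to the coumarin core, differed little, at 131 ± 6.27 CPM in Chongqing and 166 ± 4.24 CPM in Hubei (log2 fold change -0.35 ± 0.05). Bergaptol O-methyltransferase (ANA75355.1), a late step, averaged 319.7 ± 11.7 CPM in Chongqing and 1046 ± 93.4 CPM in Hubei.

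Dirigent proteins, which guide the coupling of phenolic radicals, were lower in 8 and higher in 1 of 11 tested. Dirigent protein 2 (XP_017250258.1) held most of that level, with 98.8, 97.8 and 92 CPM in Chongqing and 1195, 1163 and 1070.3 CPM in Hubei. Class III peroxidases, which oxidise phenolics in the cell wall, were lower in 38 of 45 tested proteins and higher in 4, with a median of -2.38. Their summed level was 532, 544 and 536 CPM in Chongqing and 2925, 2794 and 2698 CPM in Hubei. Peroxidase N1 (XP_017240927.1) had 14.3, 10.9 and 11.4 CPM in Chongqing and 541, 524 and 483 CPM in Hubei. An exception in size was the protein named Peroxidase (XP_017241537.1), at 219 ± 4.38 CPM in Chongqing and 245 ± 8.53 CPM in Hubei, a called difference of only -0.16 ± 0.04.

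Polyphenol oxidases, plastid enzymes that oxidise phenols to browning quinones, were also gathered after their leading member was seen. Of 4 proteins, 3 were lower and 1 was higher in Chongqing. The main one (XP_017215016.1) had 26.8, 17.5 and 17.5 CPM in Chongqing and 4147, 3947 and 3721 CPM in Hubei (log2 fold change -7.58 ± 0.14, adjusted p = 2.9e-14). A second (XP_017249929.1) had 5.62, 3.95 and 3.67 CPM in Chongqing and 831, 804 and 747 CPM in Hubei. The member that was higher in Chongqing (KZM96393.1) was a minor one, at 7.01 ± 0.332 CPM there and 1.34 ± 0.139 CPM in Hubei.

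Desaturases of the FAD2 type differed in 1 direction. FAD2 enzymes turn oleate into linoleate, and in carrot diverged copies carry the acetylenic steps that lead to polyacetylenes such as falcarinol. The list held 19 FAD2-type proteins and 1 plastid omega-6 desaturase. Of these 20, 19 were lower and 0 higher in Chongqing, with a median of -4.31, and they summed to 1416, 1431 and 1308 CPM in Chongqing and 4999, 4771 and 4439 CPM in Hubei. The FAD2 copy that was not called (XP_017258611.1) was also the most abundant in Chongqing, with 834, 852 and 772 CPM there and 975, 898 and 805 CPM in Hubei, so the areas overlapped. Without Hubei replicate 3 it passed the test at a log2 fold change of -0.19 (adjusted p = 0.044). The copy with the highest called level (XP_017246931.1) had 360.2, 359 and 333 CPM in Chongqing and 896, 831 and 761 CPM in Hubei (log2 fold change -1.24 ± 0.07).

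Other copies that were abundant in Hubei were low in Chongqing. One (XP_017246930.1) had 26.4, 19.1 and 22.8 CPM in Chongqing and 505, 490.2 and 471 CPM in Hubei. Another (XP_017247320.1) had 11, 12.5 and 10.5 CPM in Chongqing and 482, 476 and 457 CPM in Hubei (log2 fold change -5.38 ± 0.07). One more (XP_017220318.1) averaged 7.54 ± 0.503 CPM in Chongqing and 302 ± 12.1 CPM in Hubei. The plastid omega-6 desaturase (XP_017253058.1), which acts on membrane lipids, changed far less, at 25.1 ± 0.371 CPM in Chongqing and 41.5 ± 2.1 CPM in Hubei (log2 fold change -0.72 ± 0.07).

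Terpene synthases, which form the skeletons of volatile oils, were lower in 15 and higher in 2 of 21 tested (median -1.56). They summed to 75.9, 77.9 and 76.8 CPM in Chongqing and 750.1, 735 and 724 CPM in Hubei. Among monoterpene synthases, a match to a coriander gamma-terpinene synthase (AHC54050.1) was higher, at 18.1 ± 1.22 CPM in Chongqing and 3.31 ± 0.183 CPM in Hubei. A match to a carrot (R)-limonene synthase (XP_017240036.1) was lower, at 4.17 ± 0.851 CPM in Chongqing and 114 ± 3.36 CPM in Hubei. Farnesyl pyrophosphate synthase (XP_017248920.1), which supplies sesquiterpenes and sterols, averaged 13.9 ± 1.47 CPM in Chongqing and 57.3 ± 2.59 CPM in Hubei. Squalene synthase 2 (XP_017215009.1), which leads towards sterols, did not pass the test, at 33.8 ± 1.64 CPM in Chongqing and 33.7 ± 1.51 CPM in Hubei (log2 fold change 0.01 ± 0.07).

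Acyltransferases that decorate specialised metabolites followed the Hubei side. Serine carboxypeptidase-like proteins, some of which act as acyltransferases, were lower in 23 and higher in 5 of 35 tested, and the BAHD family was lower in 6 and higher in 0 of 7. Serine carboxypeptidase-like 18 (XP_017254878.1) averaged 91.4 ± 2.16 CPM in Chongqing and 985 ± 37.3 CPM in Hubei, and a further entry of that name (XP_017224284.1) had 1.25, 0.963 and 0.724 CPM in Chongqing and 362, 373 and 377 CPM in Hubei. Close to silent in Chongqing was the best match to Salutaridinol 7-O-acetyltransferase (AHL24755.1), an acetyltransferase of the poppy alkaloid pathway, with 1.68, 0.866 and 0.965 CPM there and 465, 461 and 440.4 CPM in Hubei. The 4-hydroxyphenylacetaldehyde synthase (AML79733.1), which makes an aromatic aldehyde from tyrosine in parsley, had 1.58, 1.01 and 0.724 CPM in Chongqing and 303, 290.3 and 261 CPM in Hubei.

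**Figure D3:**
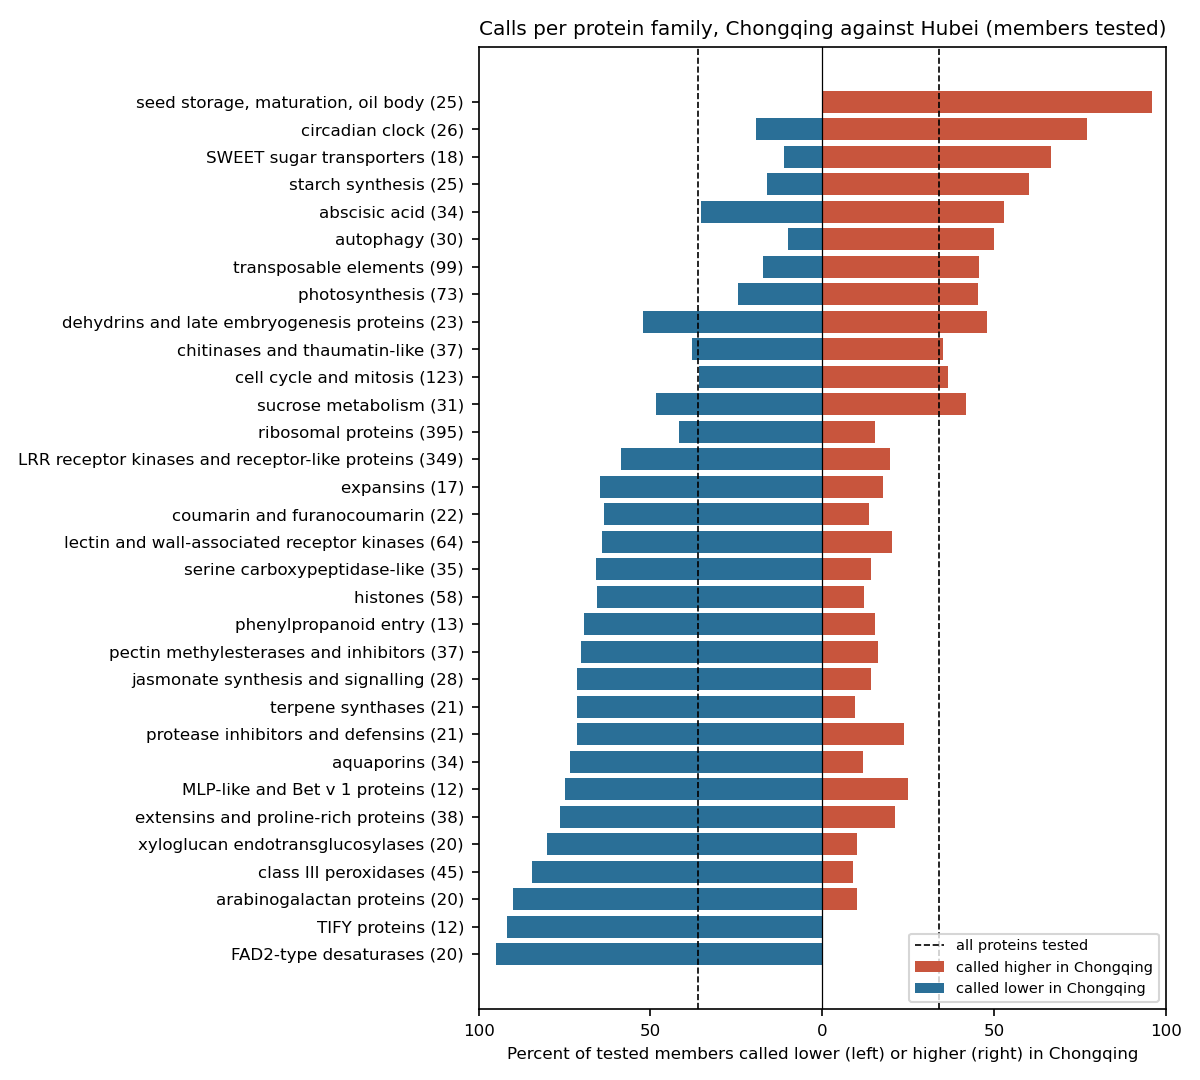
Percent of tested members called higher (right) and lower (left) in Chongqing in 32 families, with dashed lines at the values over all proteins, 34% higher and 36.1% lower. Cell wall, phenylpropanoid, receptor and jasmonate families lean to the left, and seed-type proteins, SWEET transporters, starch synthesis and the circadian clock to the right.

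All 12 cell wall lists had more proteins lower than higher in Chongqing, by very different amounts. Xyloglucan endotransglucosylases, which cut and rejoin wall xyloglucan, were lower in 16 and higher in 2 of 20 tested (median -3.09). Expansins, which loosen walls during growth, were lower in 11 and higher in 3 of 17 (median -4.13, or -3.85 with members at 0 set to their bound). Arabinogalactan proteins were lower in 18 and higher in 2 of 20, and extensins and proline-rich proteins were lower in 29 and higher in 8 of 38. Pectin methylesterases and their inhibitors were lower in 26 and higher in 6 of 37 (median -2.49, or -1.88 with bounds), and polygalacturonases and pectate lyases were lower in 36 and higher in 10 of 59. Other wall lists leaned less: xylan synthesis was lower in 14 and higher in 9 of 34 (median -0.04), and suberin, cutin and wax synthesis was lower in 51 and higher in 29 of 116 (median -0.28). Their summed levels were slightly higher in Chongqing, while those of the other wall lists were lower. Xylan synthesis summed to 1193, 1197 and 1210 CPM in Chongqing and 1159, 1155 and 1188 CPM in Hubei. Suberin, cutin and wax synthesis summed to 1869, 1783 and 1824 CPM in Chongqing and 1723, 1745.5 and 1758 CPM in Hubei.

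Individual wall proteins show the range. Extensin-2 (XP_017216901.1), a structural glycoprotein, had 30.7, 27.3 and 31.1 CPM in Chongqing and 874, 875 and 1061 CPM in Hubei. The most abundant extensin-related protein (XP_017216219.1) changed little, at 1971 ± 45.7 CPM in Chongqing and 2489.5 ± 84.8 CPM in Hubei (log2 fold change -0.34 ± 0.05). A Pectinesterase (XP_017258529.1) had 2.35, 1.35 and 1.93 CPM in Chongqing and 206, 203 and 187 CPM in Hubei, while Pectinesterase 3 (XP_017221336.1) was higher, at 113 ± 9.76 CPM in Chongqing and 40.4 ± 1.74 CPM in Hubei. BURP domain protein 5 (XP_017230513.1), of a plant family of secreted proteins, had 13.4, 8.42 and 8.06 CPM in Chongqing and 3381, 3259 and 3037 CPM in Hubei. CASP-like protein 1E1 (XP_017222353.1), a membrane protein of the family named after the Casparian strip, had 157, 155 and 151 CPM in Chongqing and 1.03, 0.832 and 1.04 CPM in Hubei. The 2 areas were far apart for both, in opposite directions. Pectate lyase 20 (XP_017229172.1) was the reverse of its family, at 48.9 ± 2.57 CPM in Chongqing and 1.24 ± 0.194 CPM in Hubei.

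Cellulose synthase A subunits, again a list made after values were seen, were lower in 5 and higher in 3 of 13 tested. An abundant CesA1 entry (KAA8521543.1) averaged 525 ± 9.02 CPM in Chongqing and 1036 ± 59.2 CPM in Hubei. CesA4 (KZN03823.1) and CesA7 (KZM96168.1), which serve secondary walls of xylem in Arabidopsis, were near 0 in both areas. CesA4 averaged 1.86 ± 0.308 CPM in Chongqing and 1.88 ± 0.139 CPM in Hubei, and CesA7 0.899 ± 0.531 CPM in Chongqing and 0.72 ± 0.227 CPM in Hubei, and neither passed the test. Lipid transfer proteins of the wall differed by member: EARLI 1 (XP_017235264.1) had 4.42, 3.18 and 2.17 CPM in Chongqing and 609, 582 and 552 CPM in Hubei, while a non-specific lipid-transfer protein (XP_017222073.1) had 234, 237 and 237 CPM in Chongqing and 7.3, 5.78 and 6.03 CPM in Hubei.

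Defence proteins were split between the areas rather than raised in one. Chitinases and thaumatin-like proteins, which attack fungal walls and membranes, were higher in 13 and lower in 14 of 37 tested, but their summed level was 9092, 9264 and 8676 CPM in Chongqing and 1931, 1873 and 1761 CPM in Hubei. The Endochitinase had 4507, 4636 and 4307 CPM in Chongqing and 372, 352 and 319.6 CPM in Hubei. An Acidic endochitinase (XP_017236249.1) had 1503, 1558 and 1432 CPM in Chongqing and 44.4, 38.8 and 35.8 CPM in Hubei. Thaumatin-like protein 1 (XP_017256982.1) averaged 730.2 ± 22.2 CPM in Chongqing and 8.21 ± 0.596 CPM in Hubei (log2 fold change 6.47 ± 0.07).

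Among 5 proteins of the PR-1 family, secreted proteins of the salicylate response, 1 was higher and 4 were lower in Chongqing. The abundant one, named above, had 3577, 3644 and 3359 CPM in Chongqing and 18.4, 15.1 and 15.4 CPM in Hubei, and all Chongqing libraries were above all Hubei libraries. Defensin-like protein 1 (XP_017225846.1), a small antimicrobial peptide type, had 1679.5, 1666 and 1525 CPM in Chongqing and 7.2, 5.41 and 5.08 CPM in Hubei. The share of counts from Rhizopus-matched unigenes, given above for both areas, was 0.181%, 0.1725% and 0.269% in Gansu and 0.258%, 0.272% and 0.412% in Shanxi. In Gansu the PR-1 entry averaged 1359 CPM and the defensin 57.6 CPM. In Shanxi the PR-1 entry averaged 6.37 CPM and the defensin had 0.604, 0.368 and 2.04 CPM. A link between this share and the defence transcripts was not tested.

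Bet v 1 proteins went the other way. Of 12 tested, 9 were lower and 3 higher in Chongqing (median -3.33), with summed levels of 4986, 4922 and 4644 CPM in Chongqing and 22009, 21384 and 19659.9 CPM in Hubei. Pathogenesis-related protein A had 652, 642 and 588 CPM in Chongqing and 12486, 12297 and 11419 CPM in Hubei, and the celery allergen Api g 1 isoallergen 1 (P49372.1) averaged 456 ± 21.3 CPM in Chongqing and 4395 ± 302 CPM in Hubei. Isoallergen 2 of Api g 1 (P92918.1) was higher instead, at 3426 ± 109 CPM in Chongqing and 2289.7 ± 231 CPM in Hubei (log2 fold change 0.58 ± 0.07).

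Protease inhibitors and defensins were lower in 15 and higher in 5 of 21 tested. Their summed level was nevertheless higher, at 2740, 2776 and 2625 CPM in Chongqing and 2293, 2220 and 2086 CPM in Hubei. Defensin-like protein 1 held 1679.5, 1666 and 1525 CPM of the Chongqing sums. The trypsin and hageman factor inhibitor had 16, 11 and 12.1 CPM in Chongqing and 2144, 2122 and 1979 CPM in Hubei. Miraculin (XP_017240498.1), a Kunitz-type inhibitor match, averaged 10.8 ± 1.22 CPM in Chongqing and 735 ± 46.7 CPM in Hubei. Cysteine proteinase inhibitor 6 appeared as 2 entries of opposite direction, of which the one that was higher (XP_017225530.1) averaged 548 ± 32.7 CPM in Chongqing and 75.6 ± 4.81 CPM in Hubei. The mannose-specific lectin (XP_017245485.1), a sugar-binding storage and defence protein in bulbs, had the largest negative log2 fold change (-8.67 ± 0.12) of the 20 proteins plotted by size, with 2.64, 1.78 and 1.69 CPM in Chongqing and 869, 833 and 795 CPM in Hubei.

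Surface receptors were lower in Chongqing as a group. LRR receptor kinases and receptor-like proteins, which sense microbes and growth peptides, were lower in 204 and higher in 69 of 349 tested (median -0.85, or -0.79 with bounds). Lectin and wall-associated receptor kinases were lower in 41 and higher in 13 of 64. By contrast, intracellular NLR immune receptors were lower in 52 and higher in 47 of 139, close to the share over all proteins. An L-type lectin receptor kinase (XP_017237281.1) averaged 69.2 ± 2.58 CPM in Chongqing and 271 ± 23.5 CPM in Hubei, whereas Cysteine-rich receptor-like protein kinase 15 (XP_017233729.1) was at 336 ± 17.6 CPM in Chongqing and 186 ± 0.985 CPM in Hubei.

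TIFY proteins, most of which are the JAZ repressors that jasmonate itself induces, were listed after their values were seen. They were lower in 11 and higher in 0 of 12, with a median of -1.95. They summed to 637, 641 and 609 CPM in Chongqing and 1667, 1674 and 1601 CPM in Hubei. TIFY 10b (XP_017238058.1) had 97.6, 94.5 and 93.2 CPM in Chongqing and 394, 376 and 348 CPM in Hubei. TIFY 10A (XP_017220047.1) had 84, 79.3 and 80.9 CPM in Chongqing and 300.4, 316 and 315 CPM in Hubei. The member that was not called, TIFY 4B (KZN10050.1), belongs to the PEAPOD type in Arabidopsis and averaged 8.73 ± 0.998 CPM in Chongqing and 9.5 ± 0.34 CPM in Hubei.

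Jasmonate synthesis and signalling, a list that includes the TIFY proteins, was lower in 20 and higher in 4 of 28 (median -1.43). Allene oxide synthase 1 (XP_017253651.1), the first committed enzyme, averaged 31.3 ± 3.03 CPM in Chongqing and 71.6 ± 3.33 CPM in Hubei. The next enzyme, allene oxide cyclase (XP_017216025.1), was slightly higher, at 78.6 ± 3.59 CPM in Chongqing and 66.7 ± 5.86 CPM in Hubei. The jasmonate receptor COI1 was higher in both of its entries, for example 16.3 ± 1.15 CPM in Chongqing and 7.46 ± 0.492 CPM in Hubei for one of them (XP_017237411.1).

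Abscisic acid proteins were higher in 18 and lower in 12 of 34 tested (median 0.57). NCED1 (NP_001316102.1), the rate-limiting step of abscisic acid synthesis, had 15.8, 15.2 and 18.5 CPM in Chongqing and 1.64, 1.94 and 1.59 CPM in Hubei. The degrading enzyme CYP707A2 was lower in both abundant entries, with 68.7, 68.4 and 74.6 CPM in Chongqing and 236, 240.2 and 230.2 CPM in Hubei for the main one (XP_017223753.1). Receptor PYL9 (XP_017236324.1) averaged 121 ± 5.68 CPM in Chongqing and 28.1 ± 3.69 CPM in Hubei, whereas receptor PYL3 (XP_017221598.1) was at 55.8 ± 3.69 CPM in Chongqing and 65.6 ± 2.04 CPM in Hubei.

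For gibberellin, 10 of 28 tested proteins were higher and 16 lower. Gibberellin 2-beta-dioxygenase 6 (XP_017243791.1), which inactivates the hormone, had 105, 108 and 106 CPM in Chongqing and 0.889, 0.74 and 0.816 CPM in Hubei (log2 fold change 7.01 ± 0.10). The synthetic enzyme gibberellin 20 oxidase 2 (XP_017241137.1) was higher too, at 26.9 ± 3.46 CPM in Chongqing and 11.4 ± 0.367 CPM in Hubei. The receptor GID1B (XP_017253761.1) averaged 86.4 ± 1.52 CPM in Chongqing and 185 ± 2.5 CPM in Hubei. Ethylene synthesis was higher in 8 and lower in 16 of 25, and ACC synthase (XP_017230683.1), its controlling step, averaged 1.04 ± 0.306 CPM in Chongqing and 11.3 ± 0.539 CPM in Hubei.

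Transcription factor families, taken from the classification that the authors deposited, leaned in different directions. The bHLH family was lower in 55 and higher in 18 of 80 tested (median -1.02). WRKY factors were lower in 34 and higher in 14 of 57, MYB factors lower in 30 and higher in 9 of 56, and ERF factors lower in 53 and higher in 29 of 106. Related classes were balanced. A second WRKY class was lower in 4 and higher in 4 of 11 (median 0.14), and MYB-related factors were lower in 25 and higher in 22 of 65 (median -0.03). HD-ZIP factors were higher in 22 and lower in 8 of 35, Trihelix factors higher in 17 and lower in 5 of 26, C3H zinc fingers higher in 29 and lower in 10 of 63, and bZIP factors higher in 26 and lower in 13 of 57. NAC factors were nearly balanced, with 29 higher and 23 lower of 66. The abundant RAP2-3 entry (XP_017215250.1), a low-oxygen regulator type in Arabidopsis, was at 1254 ± 37.8 CPM in Chongqing and 518 ± 28.7 CPM in Hubei.

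Clock proteins were higher in 20 and lower in 5 of 26, with a median of 0.74. GIGANTEA (XP_017226526.1), an evening gene in Arabidopsis, averaged 223 ± 5.01 CPM in Chongqing and 134 ± 10.8 CPM in Hubei. Adagio protein 3 (XP_017222575.1), a blue light receptor of the clock, had 287, 285 and 269.6 CPM in Chongqing and 55.7, 52.6 and 56.4 CPM in Hubei. APRR7 (QHD64714.1), a morning repressor, was lower, at 51 ± 5.11 CPM in Chongqing and 183 ± 5.68 CPM in Hubei. The labels give no time of day for either area.

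Proteins of nitrogen uptake and use were lower in 53 and higher in 30 of 98 tested (median -0.64). A smaller group of nitrate proteins was formed after values were seen, and of 7 tested 2 were higher and 4 lower. Nitrite reductase (XP_017226743.1), which makes ammonium in plastids, had 492, 489.8 and 480.3 CPM in Chongqing and 29.3, 27.7 and 27.9 CPM in Hubei. Nitrate reductase 2 (ATL77041.1) had 26.3, 27.8 and 26 CPM in Chongqing and 0.281, 0.231 and 0.317 CPM in Hubei, while the other nitrate reductase (KZM98349.1) averaged 41.1 ± 1.11 CPM in Chongqing and 50.5 ± 2.34 CPM in Hubei. The high-affinity uptake partner NRT3.1 (XP_017228266.1) was low in Chongqing, with 1.97, 1.59 and 1.3 CPM there and 57.5, 59.7 and 51.8 CPM in Hubei. Root ferredoxin-NADP reductase (XP_017230404.1), which supplies electrons to nitrite reductase in non-green plastids, averaged 469 ± 13.4 CPM in Chongqing and 88 ± 6.93 CPM in Hubei.

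The peptide transporter match NRT1/PTR 8.1 (XP_017222008.1) averaged 64.5 ± 1.97 CPM in Chongqing and 0.707 ± 0.212 CPM in Hubei, whereas NRT1/PTR 6.3 (XP_017236754.1), the nitrate transceptor of Arabidopsis, averaged 130.0 ± 5.84 CPM in Chongqing and 359 ± 25.1 CPM in Hubei. Phosphate proteins were lower in 25 and higher in 17 of 46 tested. The low-affinity phosphate transporter (XP_017226780.1) had 2.06, 1.73 and 1.45 CPM in Chongqing and 176, 182 and 170.4 CPM in Hubei (log2 fold change -6.65 ± 0.12). Sulfate transporter 3.1 (XP_017229681.1) averaged 16.6 ± 1.08 CPM in Chongqing and 192 ± 11 CPM in Hubei, while sulfate transporter 3.5 (XP_017223444.1) was at 286 ± 2.15 CPM in Chongqing and 219 ± 8.11 CPM in Hubei.

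Aquaporins, the water channels of membranes, were lower in 25 and higher in 4 of 34 (median -1.14). TIP1-1 (XP_017236400.1), the main vacuolar channel here, averaged 1943 ± 71.9 CPM in Chongqing and 2840.5 ± 162 CPM in Hubei. PIP2-7 (XP_017229927.1) in the plasma membrane had 79.1, 71.8 and 77.6 CPM in Chongqing and 471, 461 and 484 CPM in Hubei. PIP1-5 (XP_017230340.1) was higher, at 358 ± 17.2 CPM in Chongqing and 145 ± 6.32 CPM in Hubei.

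Metallothioneins, small cysteine-rich metal binders, were higher in 4 and lower in 3 of 9, and summed to 21215, 21645 and 20406 CPM in Chongqing and 10437, 10350.5 and 9891 CPM in Hubei. The type 2 protein already named as abundant in Chongqing had 5213, 5129 and 4919 CPM there and 259.7, 242 and 221 CPM in Hubei. A further type 2 protein (XP_017242148.1) had 3122, 3315 and 2972 CPM in Chongqing and 174, 161 and 152 CPM in Hubei. All 3 called lower were of type 3, the most abundant of them (KZM96309.1) at 191 ± 4.86 CPM in Chongqing and 303 ± 6.95 CPM in Hubei.

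Ribosomal proteins were lower in 165 and higher in 60 of 395 (median -0.19), and 19 were higher and 25 lower by 2-fold or more. Histones were lower in 38 and higher in 7 of 58 (median -0.99), with Histone H2A (XP_017234683.1) at 2.74 ± 0.759 CPM in Chongqing and 348 ± 15.8 CPM in Hubei. Autophagy proteins were higher in 15 and lower in 3 of 30, with a small median of 0.26. Transposable element proteins were higher in 45 and lower in 17 of 99 (median 0.68, or 0.63 with bounds). Photosynthesis proteins, which mark green tissue, summed to 1972, 2011 and 1942 CPM in Chongqing and 1594, 1609 and 1562 CPM in Hubei, a small part of the library in either area, and were higher in 33 and lower in 18 of 73. Phloem proteins were lower in 13 and higher in 2 of 17, and 1 of the 2 was SWEET11. Their summed level was nevertheless 1129, 1101 and 1169.5 CPM in Chongqing and 273, 265 and 250 CPM in Hubei. SWEET11 alone held 1014, 989 and 1064 CPM of the Chongqing sums. A list of root storage and latex proteins was higher in 11 and lower in 12 of 30 (median 0.01). The xylem list held only 1 protein, which was lower in Chongqing (log2 fold change -2.57). None of the tissue lists was made of root-defining genes, so the label root itself was not checked.

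Summing unigenes hid opposite differences within some proteins. Of 60756 unigenes tested singly, 30130 (49.6%) were called, 14366 (23.6%) higher and 15764 (25.9%) lower in Chongqing. Among 6981 proteins with at least 2 tested unigenes, 1280 (18.3%) had unigenes called in both directions. Of these the sum was called higher in 563, called lower in 381 and not called in 336. At 4-fold or more, 10.1% of the tested unigenes were called higher and 12.7% lower, and in 305 proteins unigenes were opposed by that much. Still, where the most abundant unigene and its protein were both called, which held for 4218 proteins, their signs were opposite in only 102.

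The most abundant protein of this kind that was not called as a sum was SKP1-like protein 1A (XP_017259084.1), an adaptor of ubiquitin ligases. Its sum had 2051, 2102 and 2014 CPM in Chongqing and 2069.5, 2022 and 1971 CPM in Hubei, ranges that overlapped, with a log2 fold change of 0.02 ± 0.04 (adjusted p = 0.61). Yet of its 70 tested unigenes, 22 were called higher and 19 lower in Chongqing. Unigene TRINITY_DN18657_c0_g1_i6_2 averaged 35.7 CPM in Chongqing and 138 CPM in Hubei (log2 fold change -1.95), and TRINITY_DN24406_c1_g1_i1_4 averaged 61.1 CPM in Chongqing and 17.7 CPM in Hubei (log2 fold change 1.79). Fibrillarin 1 (XP_017229282.1), which methylates ribosomal RNA, summed to 210.1 ± 8.0 CPM in Chongqing and 197 ± 10.5 CPM in Hubei, and the nucleoredoxin match (XP_017217464.1) summed to 236 ± 1.75 CPM in Chongqing and 234 ± 5.76 CPM in Hubei. Neither sum passed the test, although both held unigenes called in each direction by 4-fold or more.

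**Figure D4:**
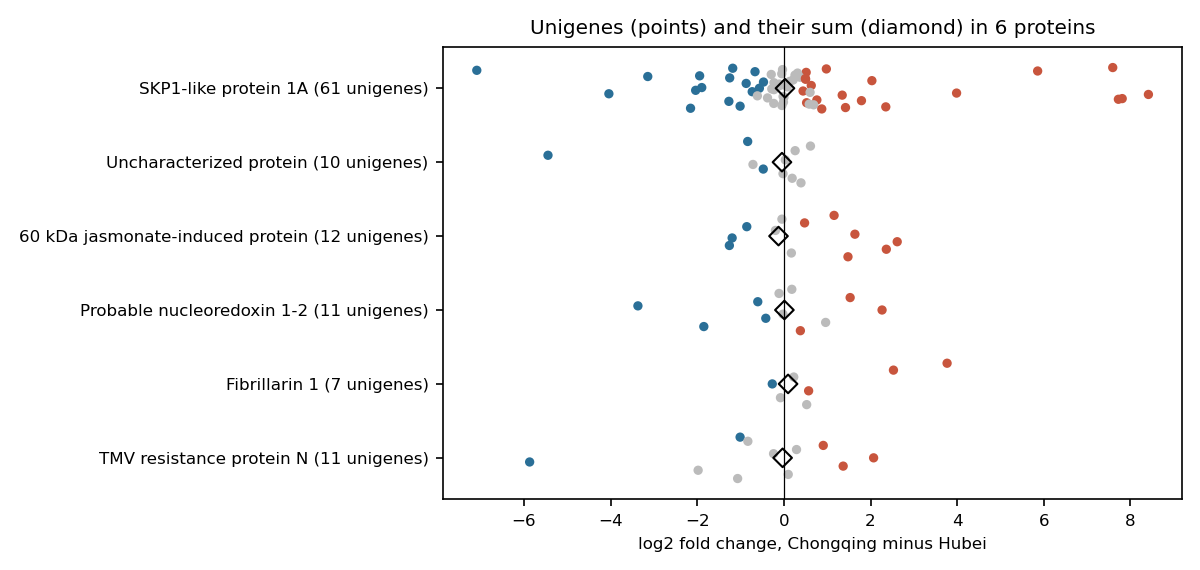
Log2 fold change (Chongqing over Hubei, horizontal axis) of unigenes in 6 proteins, where 112 of 130 tested had more than 3 counts in both areas and are drawn, coloured red where called higher in Chongqing, blue where called lower and grey where not called, with a diamond for the summed protein. Unigenes of 1 protein spread over both sides of 0 while each diamond lies near 0.

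Some proteins were found in 1 of the 2 areas only, at the depth of these libraries. At least 10 counts in each Chongqing library and 0 in every Hubei library were found for 196 proteins, and the reverse for 239. Among those with an informative description, the highest count in Chongqing was for Glutamate dehydrogenase 1 (XP_021663569.1), which links carbon and nitrogen. It had 1782 counts, at least 619.9-fold more than in Hubei. A trehalose-phosphate phosphatase (PSS26283.1) had 1365 counts in Chongqing, at least 475-fold more. A cytosolic aldolase of glycolysis (PNX95324.1) had 1332 counts there, at least 463-fold more, and a further defensin (KZN08908.1) had 1313, at least 457-fold more.

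On the Hubei side the highest counts with none in Chongqing belonged to Terminal uridylyltransferase cid1 (XP_021856500.1), at 1055 counts and at least 337-fold lower in Chongqing. Serine racemase (XP_021969145.1) had 880 counts in Hubei and was at least 281-fold lower in Chongqing. ACC oxidase 5 (XP_017247773.1), which releases ethylene, had 801 counts in Hubei and was at least 256-fold lower. A match at 0 says only that its own unigenes had no counts, and other copies of the same enzyme may be listed under other matches.

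Levels in Gansu and Shanxi show where the 2 areas stand among the 4. Of the 3605 proteins at least 2-fold higher in Chongqing, Chongqing was the highest and Hubei the lowest of the 4 area means in 1170, Chongqing was the highest with Hubei not the lowest in 1061, Hubei was the lowest with Chongqing not the highest in 1081, and both lay between in 293. Of the 5246 at least 2-fold lower, the corresponding counts were 1917, 1244, 1755 and 330, with Chongqing lowest and Hubei highest in the first. The 2S albumin averaged 4049.9 CPM in Gansu and 40.3 CPM in Shanxi, so Gansu was high like Chongqing and Shanxi low like Hubei. The abundant vicilin (XP_017252497.1) reached 3841 CPM in Gansu, above Chongqing, and 10.5 CPM in Shanxi. Defensin-like protein 1 was highest in Chongqing, with 57.6 CPM in Gansu and 1.0 CPM in Shanxi. A FAD2 copy (XP_017220318.1) reached 745 CPM in Gansu, above Hubei, and 166 CPM in Shanxi. The main polyphenol oxidase was highest in Hubei, with 367 CPM in Gansu and 292 CPM in Shanxi.

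**Figure D5:**
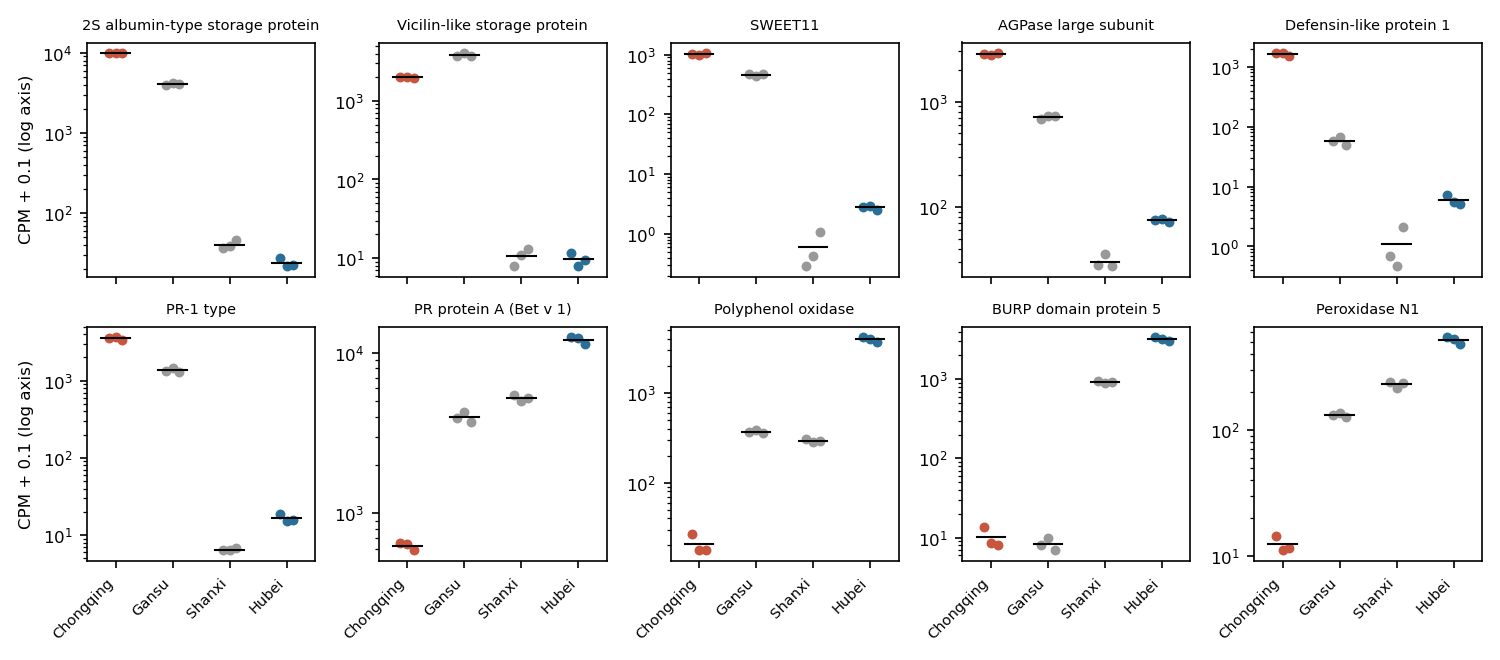
CPM plus 0.1 per library on a log axis for 10 proteins in Chongqing, Gansu, Shanxi and Hubei, with points for the 3 libraries of an area and a short horizontal bar for their mean. The 2S albumin, vicilin, SWEET11 and PR-1 type protein are high in Chongqing and Gansu and low in Shanxi and Hubei, while defensin is highest in Chongqing and polyphenol oxidase in Hubei.

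In 2 limited sets of proteins with large fold changes, replicate 1 was most often the highest library of the low area. In a set of 71 proteins at least 64-fold lower in Chongqing, Chongqing replicate 1 was the highest of the 3 Chongqing libraries in 43. Replicate 2 was the highest in 15 and replicate 3 in 13. In a set of 45 proteins at least 64-fold higher, Hubei replicate 1 was the highest of the 3 Hubei libraries in 26. Replicate 2 was the highest in 10 and replicate 3 in 9. The same count over all proteins is not given here, so an even split cannot be taken as the baseline. The count in these 2 sets was made after the values were seen. Its part in the size of the largest fold changes was not tested.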

How the data were processed

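Total RNA of roots was sequenced after mRNA enrichment, per the labels' protocols, and 3 libraries from each of 4 producing areas were given. The authors deposited estimated counts per unigene with annotation columns, and FPKM values per unigene in a second table. Per the submitters' processing notes, the tools were Trimmomatic, FastQC, RSEM, featureCounts, Bowtie2 and DESeq2. Which version and setting each had, and what it was used for, is not given in the sources used here. Strand-specific counting is not stated either, so overlapping antisense transcripts cannot be separated.

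The estimated counts were rounded to whole numbers and summed over unigenes with the same best-matching protein. Tests used edgeR 4.0.16 (R 4.3.3) with TMM scaling, filterByExpr by area and the quasi-likelihood test in 1 fit of all 12 libraries, with the contrast Chongqing minus Hubei. P-values were adjusted by Benjamini-Hochberg over all proteins tested. The procedure was tested on simulated data. DESeq2 1.42.0 and limma 3.58.1 on log2(FPKM + 1) served as alternatives.

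Families were formed by keywords in protein descriptions. The members and lists were chosen with earlier results of these data known. Named proteins were the 10 highest and 10 lowest fold changes (mean log2 CPM of at least 5 and at least 10 counts in each of the 6 libraries, no overlap between the areas, 1 protein per description), the most abundant called members of each family, the main protein of pathway steps, the 10 most abundant per area, proteins with opposed unigenes and proteins at 0 in 1 area. Proteins without an informative description, such as uncharacterized ones, were left out of the fold change ranking and of those named at 0. Proteins named in the lists said to be made after values were seen, and other members given as exceptions, were chosen after their values were seen.

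The replicate numbers did not pair the libraries, so the main fit has no block. Each Chongqing and Hubei library held at least 22854146 counts, so counting error is small for proteins above 10 CPM, and a floor of 3 counts was used where an area had none.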

Additional observations from a re-analysis of the deposited data

How the results depend on the processing

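The number of proteins called (17379) ran under another tool, scaling, filter or set of libraries from 15653 with a filter of 50 counts in at least 3 libraries to 17637 with no filter. It was 17385 with DESeq2, 17189 with limma on log2(FPKM + 1) and 16563 to 16802 with 1 library left out. Requiring a 2-fold difference left 8851, of which 40.7% were higher in Chongqing, against 48.5% of all calls. Summing over other identifiers moved it further, to 23461 of 45443 tested for Trinity genes and 8460 of 11642 for Swiss-Prot entries. Unigene calls (30130) ran from 23773 with the filter of 50 counts to 32194 with limma on log2(FPKM + 1), and from 27554 to 28794 with 1 library left out. The lean towards lower calls was not kept with limma. There 16188 were higher and 16006 lower on log2(FPKM + 1), and 15681 and 15625 on log2(FPKM + 0.1). With the replicate number as a block, 17250 proteins and 28867 unigenes were called. Same-numbered Chongqing and Hubei libraries had correlations of deviations of -0.028, 0.017 and 0.087, so the numbers were not taken as pairs.

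Of the 135 proteins named, those that were called kept their call and direction under the 12 settings checked for them. The changes of the low-count filter were not checked for named proteins. Of those not called, the metallothionein AAB70560.1 and the FAD2 copy XP_017258611.1 passed the test with limma on log2(FPKM + 1), at -0.13 and -0.19. The sign of 6 others that were not called changed. With limma on log2(FPKM + 1) and log2(FPKM + 0.1), the log2 fold changes were 0.026 and 0.022 for CesA4 (KZN03823.1), -0.061 and -0.063 for squalene synthase 2 (XP_017215009.1), -0.067 and -0.068 for the nucleoredoxin (XP_017217464.1), -0.018 and -0.018 for starch synthase 3 (XP_017234711.1), and -0.021 and -0.021 for SKP1-like protein 1A (XP_017259084.1). In a fit of only the 6 libraries, they were -0.0067 for squalene synthase 2 and -0.0026 for the nucleoredoxin. With 1 library left out they ran from -0.26 (without Chongqing replicate 3) to 0.62 for CesA7 (KZM96168.1), from -0.14 to 0.11 for CesA4, from -0.038 to 0.044 for squalene synthase 2 and from -0.0086 to 0.025 for the nucleoredoxin. The cause was not tested. Lower calls outnumbered higher ones in 74 of 98 lists, and in 67 to 77 under the alternatives. Lists with close counts turned, such as glycolysis, ABC transporters and dehydrins. Differences of libraries within an area are known only from 3 libraries, and assembled unigenes may split or join alleles. Levels near 0 rest on few counts.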

Other observations

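Unigenes with no matched protein were left out of the report's sums. Of 24663 tested, 4955 were called higher and 3555 lower in Chongqing, which is 34.5%, while 59.9% of the 36093 tested unigenes with a match were called. With a difference of at least 2-fold required, the shares were 31.8% without a match and 37.4% with one. Some were abundant, and they were picked after their values were seen. TRINITY_DN22233_c0_g1_i2_4 had 7862 ± 95.2 CPM in Chongqing and 107 ± 10.4 CPM in Hubei (SD, n = 3 each), a log2 fold change of 6.20 ± 0.09. In the other direction, TRINITY_DN9938_c0_g1_i1_3 averaged 241 CPM in Chongqing and 1042 CPM in Hubei, with a log2 fold change of -2.11. The annotation columns used here name neither of them.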
